A study of Homo sapiens with 6 samples.

Results

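MHC class I molecules carry peptides from inside the cell to its surface, where T cells and NK cells read them. The 9 genes described here encode the parts of that route: the heavy chains HLA-B, HLA-C and HLA-E, the light chain B2M, the peptide pump TAP1 and TAP2, the loading chaperone TAPBP (tapasin), and the immunoproteasome subunits PSMB8 and PSMB9. They were taken by name from a table of 60671 annotated genes, and each symbol had 1 row. All 9 passed the filter on low values that 13861 genes passed. RNA was sequenced from 6 samples of tumors that MDA-MB-231 cells, labelled WT, formed after orthotopic injection with Matrigel into mammary fat pads of young adult female NSG mice. MDA-MB-231 is a mesenchymal-like line from a triple-negative breast cancer of a patient. The groups were tumor core (TC, 3 samples) and tumor margin (TM, 3 samples). No drug or gene deletion is named for either group. Mice were killed once the tumors had reached a set mean volume, and it was not stated whether a TC and a TM sample came from the same mouse. P-values measure the spread between these samples, and the main tests take no pairing into account. In such bulk samples, fewer cells of a type and less RNA per cell cannot be told apart.

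In the class I pathway, the immunoproteasome cuts proteins into peptides, the TAP1 and TAP2 heterodimer moves these into the endoplasmic reticulum, and tapasin holds an empty heavy chain with its light chain B2M beside the pump until a peptide fits. Interferon-gamma raises most of these genes through factors that include IRF1, and NLRC5 is a transactivator of class I promoters. NSG mice have no T, B or NK cells but keep myeloid cells.

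The labels call the cells epithelial. VIM, a mesenchymal filament, was at 3797 to 5283 TPM (a transcript's length-corrected share of the library, scaled to a sum of 1000000) and the keratin KRT18 at 387 to 575 TPM. CDH1, the epithelial cadherin, was at 0 to 0.36 TPM and EPCAM at 3.66 to 6.02 TPM, so those 2 defining epithelial markers were absent or low. MHC class II genes, which mark professional antigen-presenting cells, stayed under 1 TPM in every sample for 8 of 10 genes. Of 4 leukocyte markers, PTPRC (at most 0.30 TPM) and CD53 (at most 0.28 TPM) stayed under 1 TPM in all samples, whereas CORO1A was at 4.18 to 16.0 TPM and LAPTM5 at 118 to 137 TPM, and the list summed to 127 to 137 TPM in TC and 134 to 153 TPM in TM. All 4 T and NK cell markers stayed under 1 TPM, and 2 of them were listed at 0 everywhere. Summed over 6 fibroblast markers, TC replicates 1, 2 and 3 held 62.6, 119.9 and 221 TPM, and TM replicates 1, 2 and 3 held 470.3, 996 and 84.6 TPM. Most of this was RNA of the collagen genes COL1A1, COL1A2 and COL3A1. LUM and PDGFRA stayed under 1 TPM in all samples, and DCN was seen only in TM replicate 1 (4.82 TPM). No step that separates mouse from human reads was described. All these rows are human genes, so low values do not show that cells of the mouse host were absent.

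Class I promoters are known for elements bound by interferon regulatory factors. RefSeq promoter windows on GRCh38.p14 (250 bases before to 50 after each start) were found for 8 of the 9 genes and not for HLA-E. They were searched on both strands for 2 forms of the interferon-stimulated response element. These were GAAA, any 2 bases and GAAA, and the shorter GAA, any 2 bases and GAAA. A match of the first form need not hold the second. The forms can overlap each other. One or both were present for 7 of the 8 genes. Counted by window, this was 7 of their 10 windows, against 10.6% of 35116 windows of all genes. TAP1 and PSMB8 have 2 windows each, of which 1 matched. The stretches that hold the letters are given because B2M and TAP2, whose values differed in opposite directions, both carry such a match. They run 5′ to 3′ on the strand of the gene, with the matches in capitals.

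HLA-B (chr6:31357296-31357375, minus): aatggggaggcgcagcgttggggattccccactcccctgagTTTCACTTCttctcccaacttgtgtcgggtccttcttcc
HLA-C (chr6:31272205-31272284, minus): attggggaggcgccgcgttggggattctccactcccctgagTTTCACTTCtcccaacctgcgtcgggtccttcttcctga
B2M (chr15:44711339-44711418, plus): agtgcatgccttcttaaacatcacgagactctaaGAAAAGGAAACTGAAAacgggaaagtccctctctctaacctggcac
TAP1 (chr6:32853815-32853844, minus): ggccgcTTTCGATTTCGCTTTCccctaaat
TAP2 (chr6:32838779-32838808, minus): gctgggGAAGCGAAAGCGAAAgctgcccga
TAPBP (chr6:33314075-33314104, minus): ttggagGAAAGTGAAAGTGAAAggaggaag
PSMB8 (chr6:32844028-32844057, minus): tgtggcTTTCGCTTTCACTTCctcctccga

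In the 250 bases before their starts HLA-B and HLA-C were identical at 226 of 254 aligned positions. PSMB9 had neither motif in its window. It starts on the opposite strand to TAP1, 488 bases from the TAP1 start whose window matched and 1431 bases from the other. A match of letters is a description and says nothing about what binds there.

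The study sequenced core and margin to look at how metabolic differences between zones of a tumor are regulated, and the class I genes were read from the same libraries. None passed the comparison of the zones. Limma on log2(TPM + 1) called 0 of the 9 at an adjusted p-value under 0.05, with adjusted p-values from 0.193 to 0.887. Of all genes tested it called 0.137%, 0.00721% as higher and 0.13% as lower in TC. The unadjusted p-value was under 0.05 for 2 of the 9 (16.2% of all genes), B2M as higher in TC (1.93% of all genes) and TAP2 as lower in TC (14.2% of all genes). Groups that did not overlap were found in 0 of the 9, and in 22.2% of all genes tested (3.28% higher and 18.9% lower in TC). Of all genes under the unadjusted threshold 88.0% were lower in TC, against 49.6% after median-of-ratios rescaling and 60.4% after quantile normalization. The median difference of the members was 0.11, and that of all genes tested was -0.14. After median-of-ratios rescaling these medians were 0.31 and 0.049. The difference of TAPBP turned there, from -0.20 to 0.0040, and the other 8 kept their sign.

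**Figure D1:**
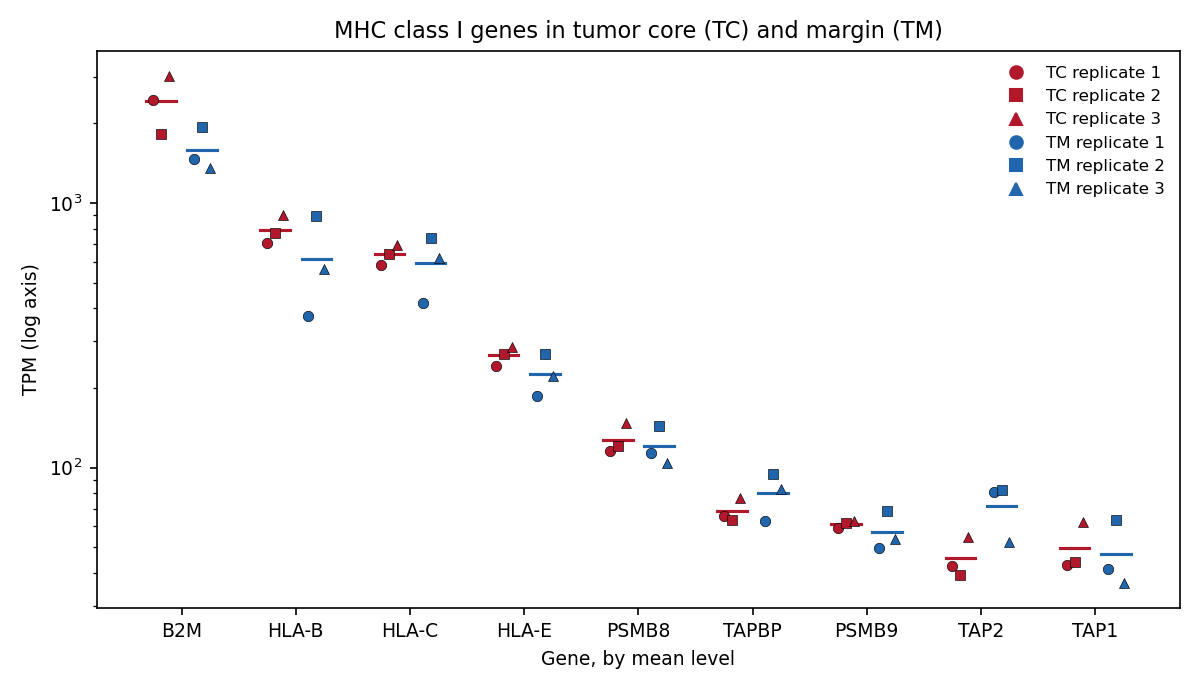
TPM of the 9 genes on a log axis, in order of their mean, with 1 point per sample (red for TC, blue for TM, marker shape for the replicate number) and a bar at each group mean. B2M is the most abundant at 1356 to 3017 TPM, TAP2 is the gene whose TM mean (71.8 TPM) lies farthest above its TC mean (45.5 TPM), and the groups overlap in every gene.

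B2M, the light chain that every class I heavy chain needs in order to fold and reach the surface, was the most abundant member. Its gene (ENSG00000166710; chromosome 15, 44711487 to 44718877, plus strand, GENCODE release 29 on GRCh38) held 2459, 1826 and 3017 TPM in the TC samples (replicates 1, 2 and 3, the order used for all genes) and 1467, 1937 and 1356 TPM in the TM samples. Of the TC samples 2 lay above all TM samples, and TC replicate 2 lay below TM replicate 2. Mean levels of 2434 ± 596 (TC) and 1587 ± 308 TPM (TM; SD, n = 3) gave a log2 difference of 0.60 (SE 0.21, 95% interval 0.11 to 1.09; limma unadjusted p = 0.0214, adjusted p = 0.216). The difference became 0.82 after median-of-ratios rescaling and 0.51 after quantile normalization, with unadjusted limma p-values of 0.0126 and 0.0425. The unadjusted p-value was above 0.05 in 4 of the 6 fits that left out 1 sample, the highest being 0.0826 without TC replicate 3 (limma, log2 difference 0.43).

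HLA-B, a classical heavy chain (ENSG00000234745; chromosome 6, 31269491 to 31357188, minus strand), was at 704, 771 and 899.5 TPM in TC and at 375, 897 and 563 TPM in TM. The TC samples lay close together, while TM replicate 1 was the lowest of all 6 and TM replicate 2 reached the top of TC. Mean levels of 791 ± 99.5 and 612 ± 264 TPM (SD, n = 3) gave a log2 difference of 0.45 (SE 0.28, adjusted p = 0.496 by limma). Which TM sample was kept decided its size. The difference was 0.77 without TM replicate 2 (limma unadjusted p = 0.00569, adjusted p = 0.180) and 0.15 without TM replicate 1 (limma unadjusted p = 0.532). The annotated spans of HLA-B and HLA-C overlap in part on the same strand, and the heavy chain genes are alike in sequence, so their reads may be assigned to the wrong gene.

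HLA-C, the other classical heavy chain of the group (ENSG00000204525; chromosome 6, 31268749 to 31272130, minus strand), was at 584, 640.5 and 694 TPM in TC and at 419, 736 and 617 TPM in TM. Again TM replicate 1 was lowest and TM replicate 2 highest, so TC lay inside the range of TM. The log2 difference was 0.15 (SE 0.20, limma adjusted p = 0.784). HLA-E, a non-classical heavy chain that presents signal peptides of other class I chains to NK cells (ENSG00000204592; chromosome 6, 30489467 to 30494205, plus strand), was at 243, 268 and 287 TPM in TC and at 187, 269 and 222 TPM in TM. Its groups overlapped only through TM replicate 2, and the log2 difference was 0.25 (SE 0.15, limma adjusted p = 0.502). Without TM replicate 2 it was 0.38 (limma unadjusted p = 0.0407, adjusted p = 0.339), and without TM replicate 1 it was 0.12 (limma unadjusted p = 0.475). In all 3 heavy chains, and in PSMB9, the order of the replicates within each group was the same. The share of all genes tested with that full order was not counted.

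TAP2, one chain of the peptide pump (ENSG00000204267; chromosome 6, 32821833 to 32838780, minus strand), went the other way. It was at 42.4, 39.3 and 54.7 TPM in TC and at 80.8, 82.1 and 52.6 TPM in TM. All TC samples lay under TM replicates 1 and 2, and TC replicate 3 lay just above TM replicate 3. Mean levels of 45.5 ± 8.12 and 71.8 ± 16.7 TPM (SD, n = 3) gave a log2 difference of -0.63 (SE 0.21, 95% interval -1.12 to -0.15; limma unadjusted p = 0.0159, adjusted p = 0.193). Without TM replicate 3 the difference was -0.84 (limma unadjusted p = 0.00109, adjusted p = 0.0848). In 4 of the other 5 fits that left out a sample the unadjusted limma p-value was 0.0513 to 0.0591, and it was 0.0890 after median-of-ratios rescaling, where the difference was -0.43. TM replicates 1 and 2, where TAP2 was highest, were also the samples with the most fibroblast marker RNA, mostly of collagen genes. Skeletal muscle markers summed in those samples to 106 and 284 TPM, against 0.99 to 3.73 TPM in the other 4 samples. The part of host RNA in the difference was not tested. The gene AL669918.1 (ENSG00000250264), which spans TAP2 on the same strand and can share its reads, was at 4.43, 9.44 and 6.24 TPM in TC and 15.4, 8.81 and 7.28 TPM in TM (named after its values were seen).

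TAP1, the other chain of the pump (ENSG00000168394; chromosome 6, 32845209 to 32853978, minus strand), was at 42.95, 43.96 and 62.5 TPM in TC and at 41.4, 63.2 and 36.8 TPM in TM. Each group held 1 high sample, TC replicate 3 and TM replicate 2, at nearly the same level, and the log2 difference was 0.095 (SE 0.23, limma adjusted p = 0.887). TAPBP, the chaperone that ties the heavy chain to the pump (ENSG00000231925; chromosome 6, 33299694 to 33314387, minus strand), was at 65.6, 63.6 and 76.5 TPM in TC and at 62.7, 94.5 and 82.7 TPM in TM. The groups overlapped through TM replicate 1, and the log2 difference was -0.20 (SE 0.17, adjusted p = 0.631 by limma). It was -0.37 without TM replicate 1 (limma unadjusted p = 0.0549) and -0.075 without TM replicate 2 (limma unadjusted p = 0.693).

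PSMB8, which replaces PSMB5 in the immunoproteasome (ENSG00000204264; chromosome 6, 32840717 to 32844703, minus strand), was at 115, 121 and 147 TPM in TC and at 113, 143 and 104 TPM in TM. PSMB9, which replaces PSMB6 (ENSG00000240065; chromosome 6, 32844136 to 32859585, plus strand), was at 59.35, 61.5 and 62.9 TPM in TC and at 49.7, 68.4 and 53.9 TPM in TM. In both genes TM replicate 2 was high and TM replicates 1 and 3 were low. The log2 differences were 0.091 (SE 0.16) and 0.11 (SE 0.15), with limma adjusted p-values of 0.840 and 0.790. With a sample left out, PSMB9 ranged from 0.012 (without TM replicate 1) to 0.24 (without TM replicate 2), and PSMB8 from -0.015 (without TC replicate 3) to 0.22 (without TM replicate 2). After median-of-ratios rescaling both differences were larger, 0.30 for PSMB8 and 0.31 for PSMB9, with unadjusted limma p-values of 0.171 and 0.121. PSMB9 is annotated across TAP1 on the opposite strand. The reads were aligned in an orientation mode by the study's methods, but whether the counting used strand was not stated, so a part of one value may belong to the other.

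The replicates of a group differed in one pattern. TC replicate 3 was the highest TC sample and TM replicate 2 the highest TM sample in all 9 members, with or without median-of-ratios rescaling. Of all genes tested, 11.8% showed that order, and 20.0% after the rescaling. These were also the samples with the most fibroblast marker RNA in their groups, nearly all of it from COL1A1, COL1A2 and COL3A1. DCN and LUM were at 0 in both. The summed level of 6 macrophage markers was 95.4 to 107 TPM in TC and 102 to 109 TPM in TM, most of it CD68 (84.8 to 94.2 TPM). Some markers were highest in TM replicate 2. There CSF1R was at 9.12 TPM (1.99 to 4.07 TPM in the other 5 samples) and LYZ at 3.99 TPM (0.27 to 0.83 TPM). CD14 was at 0.73 TPM there, and the leukocyte marker CORO1A at 16.0 TPM (4.18 to 8.22 TPM elsewhere). The other macrophage markers went otherwise. ADGRE1 was highest in TM replicate 3 (10.5 TPM) and MRC1 in TM replicate 1 (0.29 TPM), and CD68 was lowest in TM replicate 2. The part of host or myeloid RNA in the order of the samples was not tested. The SD of log2 values was larger in TM than in TC for 8 of the 9 members, B2M being the exception, against 54.5% of all genes tested.

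**Figure D2:**
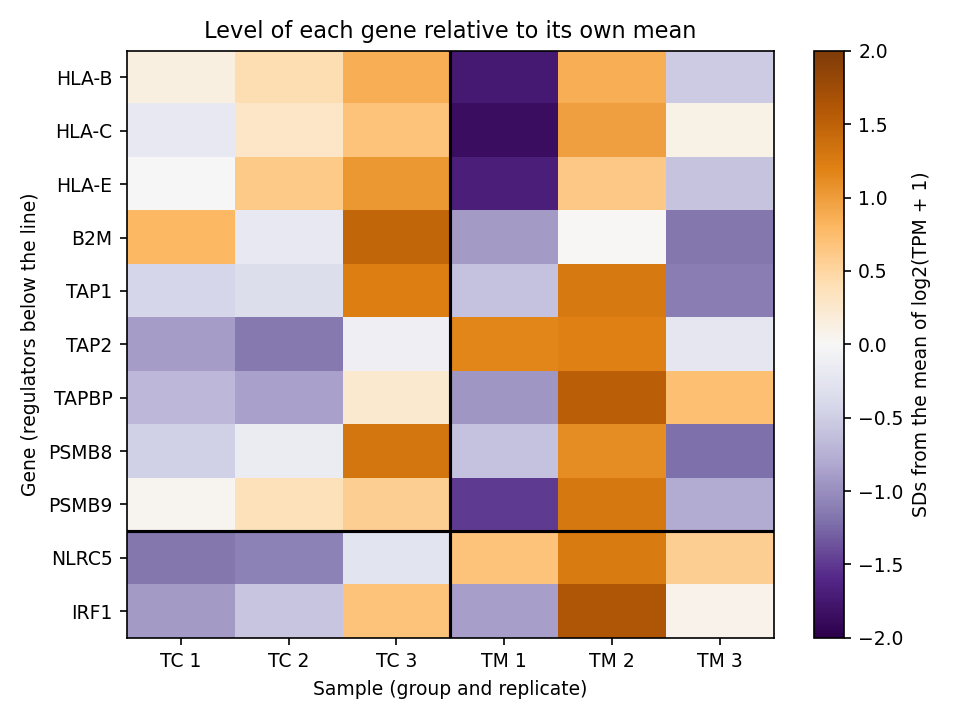
Log2(TPM + 1) of each gene in each sample, in SDs from the mean of that gene over the 6 samples (orange above, purple below), for the 9 members and, under the line, the regulators NLRC5 and IRF1. TC replicate 3 and TM replicate 2 are the highest samples of their groups in every member, and TAP2 is above its mean in TM replicates 1 and 2, as NLRC5 is in all TM samples.

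Across the 6 samples some pairs of members moved closely together. Pearson's r of log2(TPM + 1) was 0.99 for TAP1 with PSMB8, 0.98 for HLA-B with HLA-E, 0.96 for HLA-B with PSMB9 and 0.94 for HLA-B with HLA-C. Other pairs did not. TAP2 had r between -0.37 (HLA-E) and 0.43 (TAPBP) with the other members, and TAPBP had r between 0.0027 (B2M) and 0.67 (HLA-C). These are descriptions over 6 samples that share their libraries and scaling, and over heavy chains that can share reads. Every other tested gene was ranked by its r with the mean standardized profile of the 9 members. Among the highest were FBXO32, a ubiquitin ligase subunit (r = 0.99, n = 6 samples), and the membrane protein STOM (0.99). GADD45A, a stress-response gene (0.98), and NINJ1, which takes part in membrane rupture (0.98), followed. They were picked as the top of that ranking, so the high values come in part from the selection.

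Ratios of 2 genes in the same sample do not depend on how the samples were scaled, and 7 of them were compared by exact permutation (two-sided). With 3 against 3 samples no p-value under 0.1 can be reached by it. TAP1 stood to TAP2 at 1.01, 1.12 and 1.14 in the TC samples and at 0.512, 0.770 and 0.700 in the TM samples. The pump genes were thus near equal in TC, and TAP2 exceeded TAP1 in all TM samples, with no overlap between the groups. The difference of the log2 ratio was 0.74 (exact permutation p = 0.1, 0.35 adjusted over the 7 ratios), between 0.57 and 0.86 when a sample was left out.

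PSMB8 stood to PSMB5, its counterpart in the standard proteasome, at 0.379, 0.376 and 0.358 in TC and at 0.307, 0.358 and 0.322 in TM. TC replicate 3 (0.3577) lay barely above TM replicate 2 (0.3576), so the groups nearly touched. The log2 difference was 0.18 (exact permutation p = 0.1, adjusted p = 0.35). For PSMB9 to PSMB6 it was 0.040 and for PSMB10 to PSMB7, the last such pair, it was 0.22, with overlapping groups (exact permutation p = 0.8 and 0.4). PSMB10 itself was at 66.9, 72.0 and 76.9 TPM in TC and at 58.2, 55.2 and 66.85 TPM in TM, and its log2 difference was 0.26 (SE 0.13, adjusted p = 0.405 by limma). PSMB5, PSMB6 and PSMB7 had log2 differences of -0.084, 0.069 and 0.037, each smaller than its standard error.

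Heavy chains relative to B2M were compared the same way. HLA-C stood to B2M at 0.237, 0.351 and 0.230 in TC and at 0.286, 0.380 and 0.455 in TM, a log2 difference of -0.46 (exact permutation p = 0.2). For HLA-E to B2M it was -0.36 and for HLA-B to B2M -0.15 (exact permutation p = 0.3 and 0.9). The TC samples 1 and 3, with the most B2M, had the lowest HLA-C and HLA-E ratios. B2M is the denominator, so a high B2M value lowers these ratios by itself. The lowest HLA-B ratio was in TM replicate 1 (0.256). The groups overlapped in all 3 ratios.

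**Figure D3:**
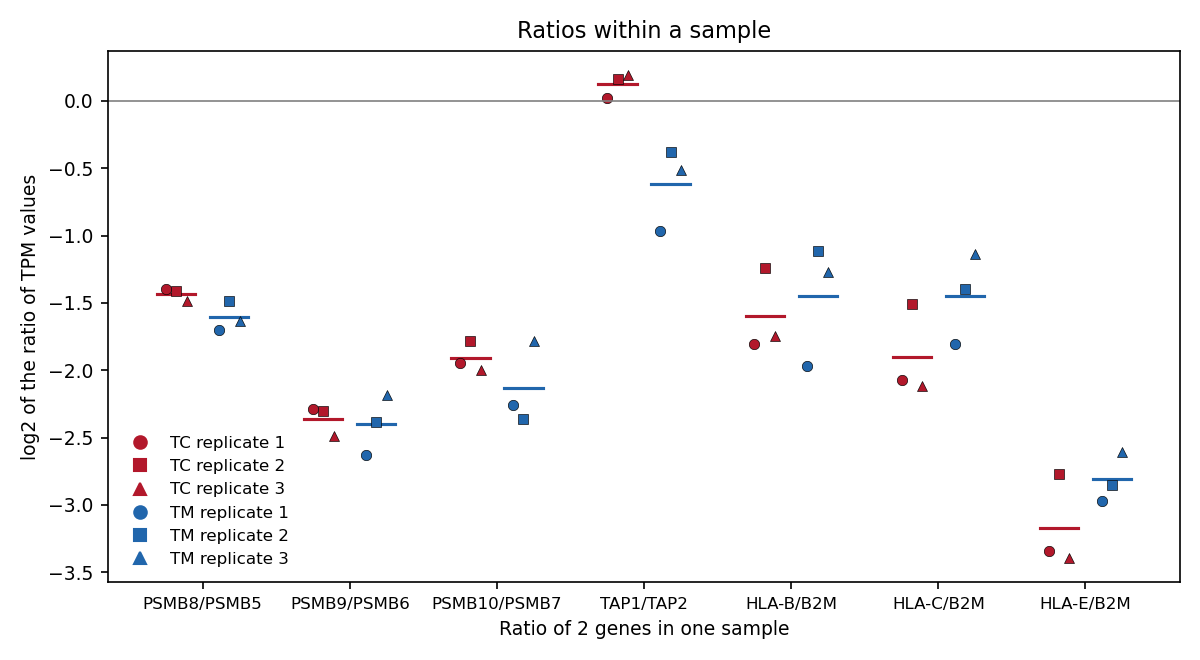
Log2 of the ratio of TPM values of 2 genes in each sample, for 7 ratios (red for TC, blue for TM, marker shape for the replicate number, bars at the group means). TAP1/TAP2 is above 0 in all 3 TC samples and below 0 in all 3 TM samples, whereas the other ratios overlap or, for PSMB8/PSMB5, nearly touch.

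Around the 9 members, 53 further genes of the pathway were followed, 42 of which passed the filter. The number called was 0 (smallest limma adjusted p = 0.148), and 4 stood at an unadjusted p-value under 0.05, of which 1 was higher and 3 were lower in TC (1.93% and 14.2% of all genes). Their median log2 difference was -0.14, as was that of all genes. NLRC5, the class I transactivator, was at 8.52, 8.74 and 11.2 TPM in TC and at 14.7, 17.4 and 14.3 TPM in TM. All TC samples were below all TM samples. The log2 difference was -0.66 (SE 0.19, limma unadjusted p = 0.00836, adjusted p = 0.148), and it was -0.46 after median-of-ratios rescaling (limma unadjusted p = 0.0567). Of the 9 members, TAP2 had the profile closest to that of NLRC5 (r = 0.90, n = 6 samples), followed by TAPBP (0.67). The other members had r from -0.48 (B2M) to 0.22 (TAP1). TAP2 and NLRC5 both had lower means in TC, and r over both groups includes that difference.

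IRF1 was at 23.4, 25.3 and 33.6 TPM in TC and at 23.6, 41.4 and 29.3 TPM in TM (log2 difference -0.17, SE 0.23, limma adjusted p = 0.787). The order of its replicates within each group was that of the 3 heavy chains and PSMB9, an order whose share over all genes tested was not counted. Its r with the members over the 6 samples ran from 0.22 (B2M) to 0.92 (TAPBP). Of 13 transcription factors of class I genes 2 were under the unadjusted threshold, NLRC5 and NFYC, a subunit of the factor that binds CCAAT, with 33.5 ± 4.03 TPM in TC and 46.2 ± 3.30 TPM in TM (SD, n = 3, difference -0.46 in log2, SE 0.15, adjusted p = 0.181 by limma).

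Of 8 proteasome partners 1 was under the threshold. POMP, a proteasome assembly factor, was at 101.8, 97.9 and 119.4 TPM in TC and at 86.2, 89.7 and 77.8 TPM in TM. Its groups did not overlap (log2 difference 0.32, SE 0.13, limma adjusted p = 0.279). Of 10 genes listed under peptide loading and trimming the only one under it was SPPL3. SPPL3 is an intramembrane protease of the Golgi and itself neither loads nor trims class I peptides. It had 25.7 ± 2.63 TPM in TC and 34.3 ± 5.27 TPM in TM (SD, n = 3, difference -0.40 in log2, SE 0.17, adjusted p = 0.293 by limma). The same number was 0 of 7 for interferon-gamma signalling, 0 of 4 tested genes for the other heavy chains that pair with B2M, and 0 of 1 for class II.

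**Figure D4:**
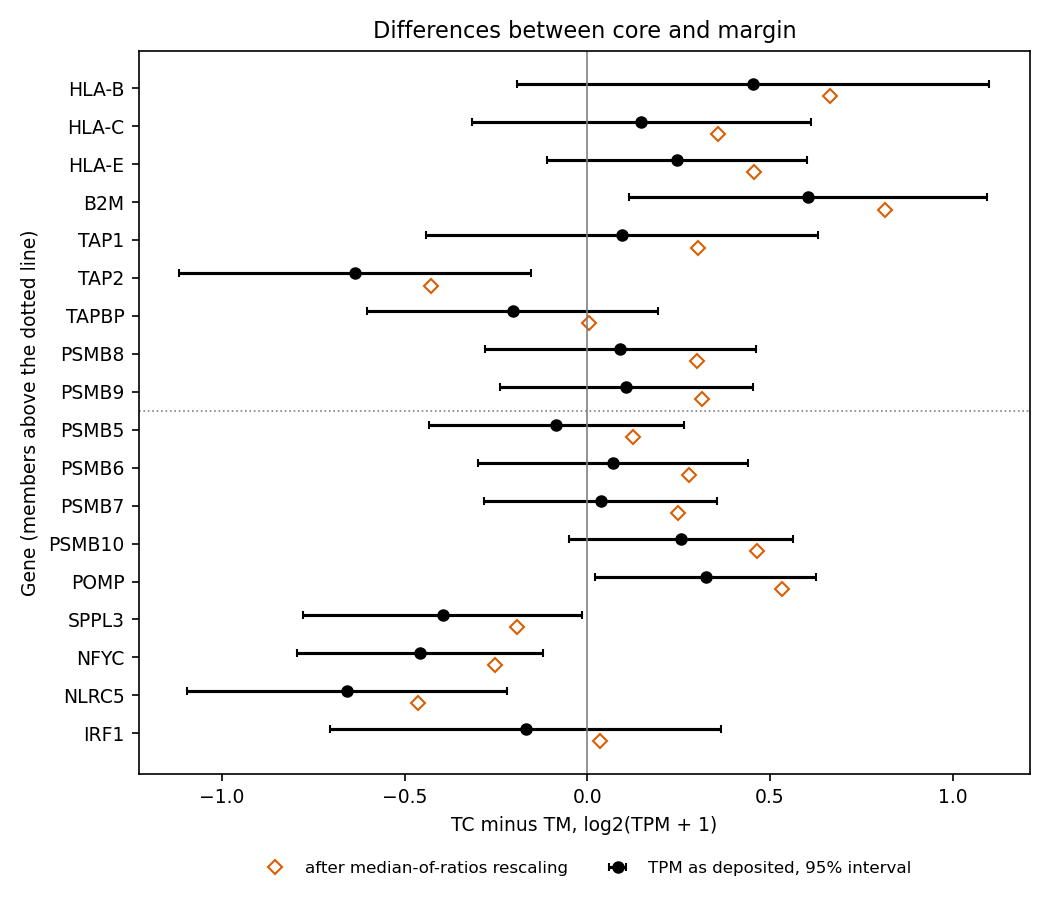
Log2 difference (TC minus TM) of the 9 members and of 9 further pathway genes, with black points and 95% intervals from limma for TPM as deposited and open orange diamonds after median-of-ratios rescaling. The intervals of B2M, TAP2, POMP, SPPL3, NFYC and NLRC5 leave out 0, and rescaling shifts every gene to the right, which takes TAPBP from -0.20 to 0.0040, PSMB5 from -0.084 to 0.13 and IRF1 from -0.17 to 0.035.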

How the data were processed

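RNA-seq libraries (TruSeq) of 3 TC and 3 TM samples were read in pairs. By the study's methods, SeqPrep and Sickle cleaned the reads, HISAT2 aligned them in an orientation mode, StringTie assembled transcripts and RSEM gave gene levels. The submitters' processing notes name hg38, and the annotation release is not given in the sources used here. Gene positions are from GENCODE 29 (GRCh38), matched by gene ID. The authors deposited TPM, from which library depth cannot be read, so no counting interval is given. DESeq2, the study's model, needs counts and was not run. The columns summed to 1000000, or to 994381 in TM replicate 3, and 0 other value columns were present.

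Symbols were found for 60401 of 60671 annotated genes, and 259 loci outside the annotation were left out. Genes reaching 1 TPM in 3 or more samples were fitted with limma 3.58.1 in R 4.3.3 on log2(TPM + 1) (empirical Bayes with a mean-variance trend, two-sided, Benjamini-Hochberg adjustment over 13861 genes). That scale understates changes of low genes. The fit was tested on simulated data. Ratios were tested by exact permutation (scipy 1.17.1). Alternatives were other pseudocounts, filters, scalings and moderation, a replicate block and each sample left out.

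The members and lists were chosen with earlier results of these data known. Named were the 9 members, PSMB5, PSMB6, PSMB7, PSMB10, NLRC5, IRF1, listed pathway genes with an unadjusted p-value under 0.05, and the 5 genes with the profile most like that of the members, except that 2 genes the rule names are not reported here. Markers, AL669918.1 and motifs serve as description.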

Additional observations from a re-analysis of the deposited data

How the results depend on the processing

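No member passed the adjusted threshold of limma under any of the 16 alternatives, and 6 of the 144 values of members changed sign. These were TAPBP after median-of-ratios rescaling (0.0040), TAP1 without TC replicate 3 (-0.076) or TM replicate 3 (-0.059), PSMB8 without the same samples (-0.015 and -0.0055), and HLA-C without TM replicate 1 (-0.079). With a sample left out, TAP1 ranged from -0.076 to 0.32, PSMB8 from -0.015 to 0.22 and HLA-C from -0.079 to 0.33. Of the 56 values of ratios 2 changed sign, PSMB9/PSMB6 without TM replicate 1 (-0.076, range -0.076 to 0.15) and HLA-B/B2M without TM replicate 2 (0.018, range -0.41 to 0.018). The number of members with an unadjusted p-value under 0.05 was 1 after median-of-ratios rescaling and 1 with the replicate block, and 0 to 3 when a sample was left out (0 without TC replicate 1 or TM replicate 1). The number of other pathway genes under it was 1 to 6. Of all genes, 19 were called, against 7 with a pseudocount of 0.1, 32 without a filter (where limma warned that most residual variances were 0), 4 after quantile normalization, 6 after median-of-ratios rescaling, 1 with the replicate block, 12 without a trend, 47 with robust moderation, and 1 to 17 with a sample left out. Summing all rows of a symbol left the 9 differences unchanged. The labels do not say that a replicate number marks a shared mouse, and the deviations of same-numbered samples from their group means correlated at 0.21, -0.12 and -0.16, so the numbers were not taken as pairs. Only the samples numbered 1 correlated best with their own number. TC replicate 2 and TM replicate 3 were each the best match of the other, as were TC replicate 3 and TM replicate 2. Whether samples that matched best share a mouse was not tested, and a block by these matches was not fitted. Library depth cannot be read from TPM, which limits what can be said of low genes. The cause of these shifts was not tested.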
